A study of Mus musculus with 12 samples.

Results

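ESRRB binding was examined around 8 genes of the trophoblast lineage, Tead4, Cdx2, Gata3, Tfap2c, Elf5, Ets2, Hand1 and Bmp4. The count table of the study was searched for regions whose nearest RefSeq protein-coding gene was one of these 8 and whose centre lay inside the gene or within 100 kb of it. This gave 84 of 86201 regions, of which 20 belonged to Tfap2c, 15 to Gata3, 14 to Bmp4, 10 to Hand1, 8 to Ets2, 7 each to Elf5 and Tead4 and 3 to Cdx2. The rule for membership used roles in trophoblast and position, and no measured value. The genes were, however, chosen with earlier results of these data known.

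The cells were untreated embryonic stem cells of the mouse, kept in serum and leukaemia inhibitory factor. Fragments of DNA bound by ESRRB were recovered with an antibody and sequenced (ChIP-seq). One line is labelled NanogKO:Esrrb:Nanog ("with Nanog") and the other NanogKO:Esrrb ("without Nanog"), so both carry the Nanog knockout and Esrrb, and they differ in Nanog. Each line had 3 ESRRB ChIP libraries, marked A, B and C. The labels do not state how Esrrb and Nanog were supplied, and every sample has the same cell line entry, N{delta}:cE:iN. Fixation was with formaldehyde, alone or with disuccinimidyl glutarate, and the labels do not tie either one to a library. ChIP counts do not measure RNA or NANOG, so neither the stem cell state nor the Nanog label was checked, and signal near a gene says nothing of whether that gene is active.

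Trophoblast is the first lineage to leave the embryo proper, and it forms the placenta. TEAD4, held on or off by the Hippo pathway, turns on Cdx2 and Gata3 in the outer cells of the morula. CDX2, ELF5, TFAP2C and ETS2 then maintain trophoblast stem cells, HAND1 drives their differentiation to giant cells, and BMP4 is a signal from extraembryonic ectoderm to the neighbouring epiblast. ESRRB, an orphan nuclear receptor, is needed both in naive embryonic stem cells and in trophoblast stem cells. In embryonic stem cells the trophoblast programme is normally kept silent.

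Start-site sequences could be matched for 5 of the 8 genes, in 6 windows of 250 bases before and 50 after the start (RefSeq, GRCm38.p6, the assembly that mm10 names), and not for Tead4, Tfap2c and Hand1. One of these windows, that of Gata3, lay within an ESRRB region, and the 250 bases before its start are shown for that reason. They run over chr2:9878601-9878850 on the minus strand, and the GC box, GGGCGG, is marked by capitals wherever it occurs.
Gata3: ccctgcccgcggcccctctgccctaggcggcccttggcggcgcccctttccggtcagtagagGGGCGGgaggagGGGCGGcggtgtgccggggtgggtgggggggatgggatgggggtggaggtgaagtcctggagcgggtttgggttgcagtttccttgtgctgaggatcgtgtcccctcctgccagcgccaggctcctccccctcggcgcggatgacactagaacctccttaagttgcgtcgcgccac
The stretch holds 70.0% G and C, against a median of 52.4% over the same bases of 32851 start sites. The GC box was present, on either strand, in the 250 bases of 32.7% of all start sites. Neither the ESRRB motif TCAAGGTCA nor its core AAGGTCA, which lies within it, occurred on either strand in any of the 6 windows. Over all start sites 0.423% of windows held the full motif and 4.72% the core. Measured from the edge of the window, the nearest region lay 748 bases from that of Bmp4, 2001 from that of Cdx2, 1979 and 13949 from those of Elf5 and 14738 from that of Ets2.

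Signal is given in CPM, each region's count relative to its library's total, scaled by the trimmed mean of M values (TMM), and differences as log2 fold changes, with over without Nanog. Counts in regions summed to between 6689166 and 8382646 per library with Nanog and between 2734338 and 5193707 without Nanog, so weak regions are less precisely measured without Nanog. The median count of the 84 regions was 43.5, 60.5 and 49 in the libraries with Nanog and 15, 25 and 28 in those without Nanog. Counts in regions give differences relative to the other regions only, and the deposited table used here has no input column to set weak signal against. No label ties the 3 libraries of a line to 3 cultures, and p-values therefore cover a spread that may be technical.

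Of the 84 regions 83 passed the filter on low counts, and ESRRB signal was called higher with Nanog in 12, lower in 7 and neither in 64 (quasi-likelihood test of edgeR, adjusted p under 0.05 by Benjamini and Hochberg over all regions). Calls were made in 19.2% of all 84892 regions tested, 9.42% higher and 9.78% lower, so the 14.5% higher and 8.43% lower among the trophoblast regions lie near the background. Their median log2 fold change was 0.14, with quartiles of -0.24 and 0.50, and that of all regions was -0.01, with quartiles of -0.33 and 0.32. The libraries of the lines did not overlap in 35 of the 83 regions (42.2%), against 33.8% of all regions tested. Over the whole table there were 7997 higher and 8306 lower calls, which became 4988 and 4780 without library B with Nanog, and the lower calls became 5045 without library A with Nanog. Scaled by TMM on the regions with the lowest signal alone, the whole table gave 6475 higher and 10988 lower calls and the trophoblast regions again 12 and 7.

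**Figure D1:**
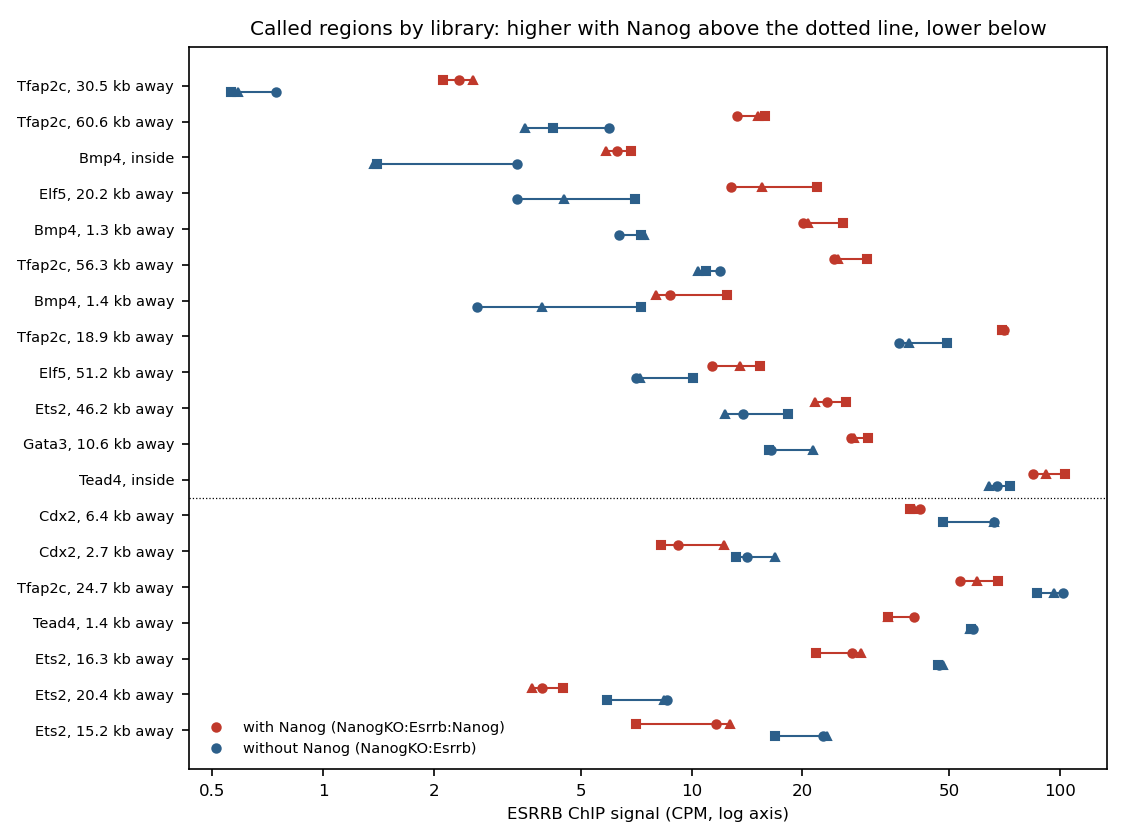
ESRRB signal in CPM on a log axis in each library of both lines at the 19 called regions, named by gene and distance. Circles, squares and triangles are libraries A, B and C. Above the dotted line the 12 higher regions have every library with Nanog to the right of every library without Nanog, and below it the 7 lower regions have every library with Nanog to the left.

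By place, 18 of the 84 regions (21.4%) lay inside their gene, against 51.4% of all regions at any distance from a gene, and 13 lay farther than 50 kb from it. The share inside a gene depends on gene length, which was not taken into account here. All 84 overlapped the deposited peak list of the line with Nanog by at least 1 bp, as did all but 0.806% of all regions. Of the 84, 26 (31.0%) also overlapped the list of the line without Nanog, against 37.8% of all regions. The 7 regions of Elf5 were all in the list with Nanog alone, whereas 5 of the 8 regions of Ets2 were in both. All 7 lower calls were made in the regions of both lists and 8 of the 12 higher calls in regions of the list with Nanog alone. Over all tested regions, those in both lists were called higher in 7.4% and lower in 20.8%, and of regions in the list with Nanog alone 10.8% were called higher and 1.92% lower, which is a split in the same direction. The lists come from the same libraries as the counts and have no replicates, so this is a description. The 8 higher calls in the list with Nanog alone are all those at Elf5, Bmp4 and Gata3 and those of Tfap2c at 30.5 and 60.6 kb. Their direction is not independent of how the regions were found, and further tests on the same libraries do not remove this.

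To give each gene 1 value, counts were summed over its regions and tested over 16018 genes. The summed counts were scaled by their own library totals and their own TMM factors. CPM of a gene sum are therefore not the sum of the CPM given for its regions below. Bmp4, Elf5 and Gata3 gained ESRRB signal with Nanog, Cdx2 and Ets2 lost it, and Tead4, Tfap2c and Hand1 were not called. Among all genes 23.8% were called, 11.9% higher and 11.9% lower. The genes differ in which peak list their regions come from: 7 of 7 regions of Elf5, 13 of 15 of Gata3 and 12 of 14 of Bmp4 were in the list with Nanog alone, against 1 of 3 of Cdx2 and 3 of 8 of Ets2. A region in that list alone entered the table through the line with Nanog, so the direction of a sum is not independent of how its regions were found.

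At Elf5 the sum was 50.8, 68.3 and 53.5 CPM in libraries A, B and C with Nanog, against 28.6, 39.7 and 34.9 CPM without Nanog, a log2 fold change of 0.73 ± 0.14 (SE; edgeR, adjusted p = 0.000609). Bmp4 had 100.0, 141 and 111 CPM with Nanog and 66.4, 82.7 and 71.2 CPM without Nanog, a log2 fold change of 0.67 ± 0.12 (edgeR, adjusted p = 0.000264). The libraries did not overlap at either gene, and library B was the highest of its line at both genes in both lines. For Gata3 the sums were 127, 136 and 132 CPM with Nanog and 102, 120 and 110 CPM without Nanog, a log2 fold change of 0.24 ± 0.08 (edgeR, adjusted p = 0.0376). The Gata3 call failed under DESeq2 (adjusted p = 0.0722). It also failed whenever 1 library other than B without Nanog was removed (edgeR, adjusted p from 0.0682 to 0.182).

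Cdx2 summed to 63.4, 59.1 and 64.4 CPM with Nanog, against 94.1, 74.4 and 94.4 CPM without Nanog, a log2 fold change of -0.49 ± 0.10 (edgeR, adjusted p = 0.00167). The sums of Ets2 were 98.5, 91.0 and 101 CPM with Nanog and 121, 124 and 119 CPM without Nanog, a log2 fold change of -0.33 ± 0.08 (edgeR, adjusted p = 0.0069). At both genes every library with Nanog was below every library without Nanog. Without the strongest region neither sum was called (edgeR, adjusted p = 0.0881 for Cdx2 and 0.69 for Ets2). Tead4 had 175, 189 and 169 CPM with Nanog and 172, 185 and 164 CPM without Nanog (edgeR, adjusted p = 0.765). Hand1 had 133, 135 and 125 CPM with Nanog and 113, 121 and 126 CPM without Nanog (adjusted p = 0.306, edgeR). Tfap2c, with 20 regions, had 551, 635 and 553 CPM with Nanog and 536, 577 and 544 CPM without Nanog (edgeR, adjusted p = 0.439). The libraries of the lines overlapped at these 3 genes. Log2 fold changes were 0.04, 0.12 and 0.07 at Tead4, Hand1 and Tfap2c, with SE of 0.08, 0.08 and 0.06.

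**Figure D2:**
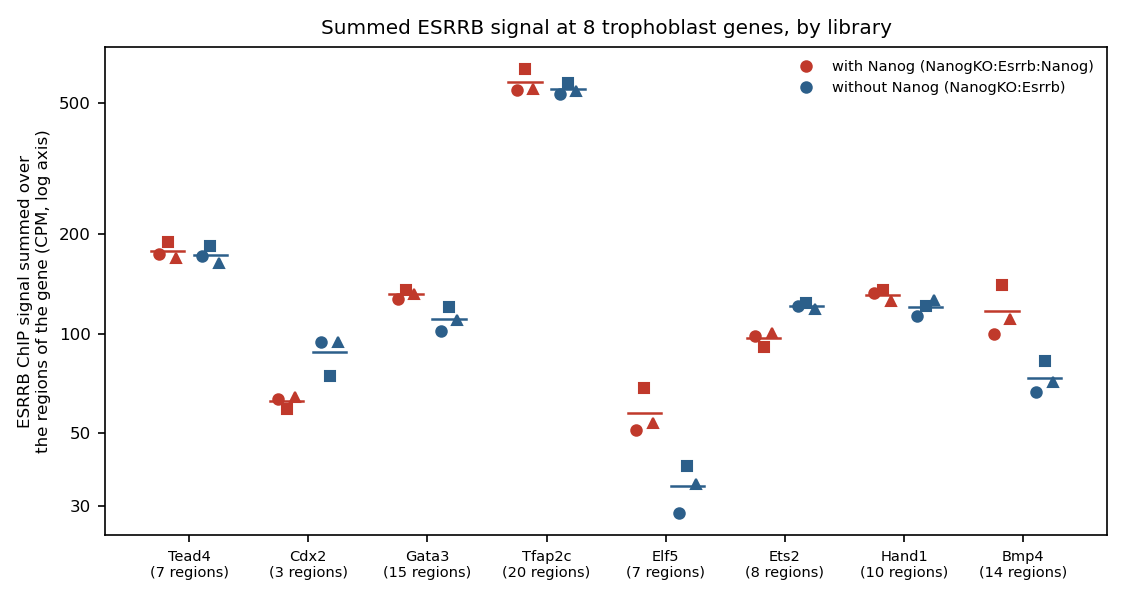
ESRRB signal summed over the regions of each gene, in CPM on a log axis, for each library (circle A, square B, triangle C), with the mean of each line as a bar. Elf5, Bmp4 and Gata3 lie higher with Nanog, Cdx2 and Ets2 lie lower, and the lines overlap at Tead4, Tfap2c and Hand1.

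Genes were ranked by level per kb of region, which takes out region width. With Nanog the order was Tfap2c at 48.0 ± 4.0 CPM per kb (SD, n = 3, as below), Tead4 at 41.9 ± 2.5, Cdx2 at 39.3 ± 1.8 and Hand1 at 34.0 ± 1.3 CPM per kb. Elf5 at 25.9 ± 4.2, Ets2 at 24.9 ± 1.3, Bmp4 at 23.5 ± 4.2 and Gata3 at 21.5 ± 0.70 CPM per kb followed, each overlapping the next in its library values. Tead4 and Cdx2 also overlapped, and the other neighbours in this order did not. Without Nanog Cdx2 came first, at 55.3 ± 7.3 CPM per kb, overlapping Tfap2c at 45.7 ± 1.8. Next were Tead4 at 40.9 ± 2.5, Ets2 at 31.3 ± 0.66 and Hand1 at 31.1 ± 1.7 CPM per kb, the last pair overlapping. Gata3 at 18.1 ± 1.5, Elf5 at 15.5 ± 2.5 and Bmp4 at 14.7 ± 1.7 CPM per kb were lowest and overlapped each neighbour in turn.

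Regions of 1 gene did not always move together, so the difference between them was tested (diffSpliceDGE of edgeR, Benjamini-Hochberg adjusted over 12140 genes). Regions differed in fold change within 6 of the 8 genes, and within 46.1% of all genes tested. The adjusted p by diffSpliceDGE was 5.55e-14 for Tfap2c, 6.84e-09 for Ets2, 1.16e-05 for Bmp4, 1.18e-05 for Tead4, 0.000121 for Elf5 and 0.0214 for Gata3. It was 0.153 for Cdx2 and 0.521 for Hand1. Single regions differed from their gene as a whole, themselves included, in 18 cases, and in 12.5% of all regions tested. A region that holds much of its gene's signal is thus compared largely with itself. Those 18 became 11 without library B with Nanog and 10 without library C without Nanog, and the call for Gata3 was lost on leaving out B or C with Nanog or B without Nanog (diffSpliceDGE, adjusted p = 0.248, 0.177 and 0.103). Without B without Nanog, Cdx2 was called in its place (diffSpliceDGE, adjusted p = 0.0488). Tead4, Tfap2c and Ets2 held calls in both directions.

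**Figure D3:**
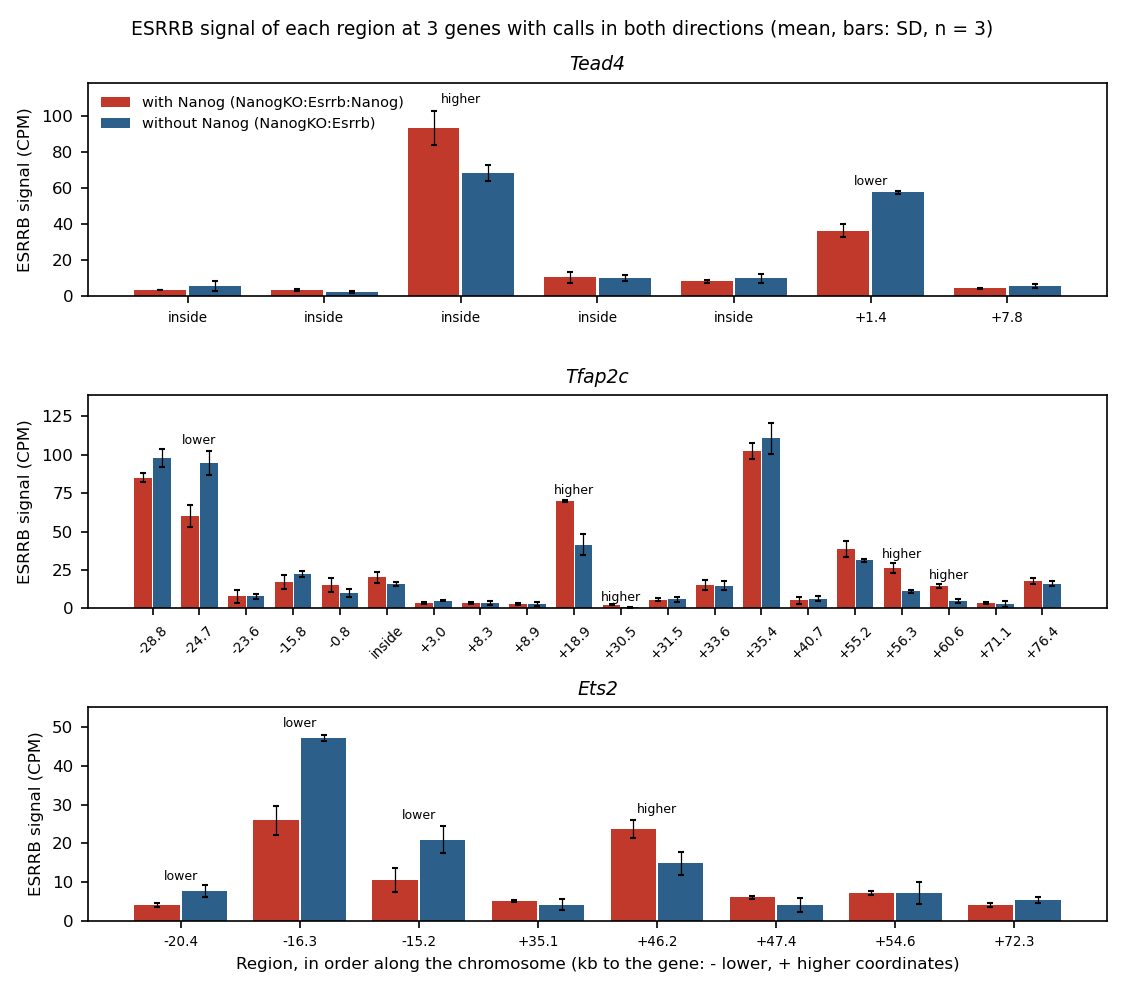
Mean ESRRB signal in CPM (bars, SD, n = 3 libraries per line) at every region of Tead4, Tfap2c and Ets2 in order along the chromosome, with distance to the gene in kb and "inside" for regions within it; called regions are marked higher or lower with Nanog. At Tead4 a region inside the gene is higher and one 1.4 kb outside it lower, at Tfap2c the region 24.7 kb away at lower coordinates is lower and 4 regions on the other side are higher, and at Ets2 the 3 regions at lower coordinates are lower and the one at +46.2 kb is higher.

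Tead4, the factor through which Hippo signalling reaches Cdx2, lies on chromosome 6 at 128227143 to 128300813. Its strongest region, inside the gene at 128280746 to 128282536, had 84.6, 103 and 91.5 CPM with Nanog and 67.5, 72.9 and 64.1 CPM without Nanog. Every library with Nanog was above every library without Nanog, with a log2 fold change of 0.45 ± 0.11 (edgeR, adjusted p = 0.00411). The region 1.4 kb outside the gene on the side of higher coordinates, at 128301779 to 128302559, went the other way, with 40.2, 34.2 and 34.1 CPM with Nanog and 58.2, 57.2 and 56.9 CPM without Nanog. Its log2 fold change was -0.67 ± 0.12 (edgeR, adjusted p = 0.000295). Both regions differed from the gene as a whole (diffSpliceDGE, adjusted p = 0.00986 and 0.000381), so the uncalled sum of Tead4 combined a higher and a lower region. The strongest region held 58.6% of the signal of the gene with Nanog and 42.8% without Nanog, and its call was lost without library B with Nanog (log2 fold change 0.37, edgeR, adjusted p = 0.0507). Summed over regions inside the gene Tead4 was called higher, with a log2 fold change of 0.30 (edgeR, adjusted p = 0.0184), and summed without its strongest region it was called lower, at -0.45 (edgeR, adjusted p = 0.000886). The other 5 regions were weak, at most 10.2 CPM on average over the libraries, and none of them was called.

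Cdx2, the homeobox factor that sets trophectoderm apart from inner cell mass, lies on chromosome 5 at 147300900 to 147307249 and had 3 regions. The strongest, 6.4 kb downstream of the gene at 147294083 to 147294930, had 41.7, 39.0 and 40.1 CPM with Nanog, against 66.4, 48.2 and 66.3 CPM without Nanog. Signal there fell by 0.58 ± 0.13 on the log2 scale (edgeR, adjusted p = 0.00181), and the call held in all 16 alternatives. It carried 72.3% of the signal of Cdx2 with Nanog and 74.9% without Nanog, and per kb it was within the strongest 2.21% of all regions. A region 2.7 kb downstream, at 147298040 to 147298394, had 9.19, 8.26 and 12.2 CPM with Nanog and 14.2, 13.2 and 16.9 CPM without Nanog. Its log2 fold change was -0.59 ± 0.21 (edgeR, adjusted p = 0.0436), a call lost in 8 of 16 alternatives, among them DESeq2 (adjusted p = 0.096) and leaving out A or B with Nanog or A or C without Nanog (edgeR, adjusted p from 0.0753 to 0.23). The region inside the gene had 5.69, 5.31 and 5.61 CPM with Nanog and 6.71, 5.89 and 3.92 CPM without Nanog and was not called. The lines overlapped there, and none of the 3 regions reached the window at the start of the gene.

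Gata3, a zinc finger factor that acts beside CDX2 in trophectoderm, lies on chromosome 2 at 9857078 to 9887953. The start site of the window shown above, at 9878600, lies inside this span, and distances are measured from the span. The one called region of Gata3, also its strongest, lay 10.6 kb upstream of the span at 9897896 to 9899174. It had 27.1, 30.1 and 27.6 CPM with Nanog and 16.4, 16.3 and 21.4 CPM without Nanog, with no overlap and a log2 fold change of 0.63 ± 0.16 (edgeR, adjusted p = 0.00627). Without the strongest region of each gene, an alternative chosen after seeing the data, the sum of Gata3 had a log2 fold change of 0.11 (edgeR, adjusted p = 0.428). The region over the start site printed above, at 9878513 to 9878874, was weak, with 3.94, 2.95 and 3.69 CPM with Nanog and 4.10, 2.24 and 1.96 CPM without Nanog. The lines overlapped there and the region was not called (edgeR, adjusted p = 0.379). The 14 regions not called had log2 fold changes from -0.45 to 0.56. One of them, 30.4 kb downstream, had 9.19, 7.55 and 8.03 CPM with Nanog and 11.6, 13.7 and 9.02 CPM without Nanog. It was the only region of Gata3 that differed from the gene as a whole (diffSpliceDGE, adjusted p = 0.0387).

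Tfap2c, an AP-2 factor of trophoblast stem cells and germ cells, lies on chromosome 2 at 172545678 to 172558622. Its 20 regions put it among the 2.55% of genes with as many or more. The strongest, 35.4 kb from the gene at 172593147 to 172594958, had 97.4, 108 and 102 CPM with Nanog and 99.9, 120 and 112 CPM without Nanog. It was not called (log2 fold change -0.11 ± 0.10; edgeR, adjusted p = 0.476). On the side of lower coordinates, the region at 172520539 to 172521458, 24.7 kb away, had 53.7, 67.7 and 59.6 CPM with Nanog and 102, 86.4 and 96.3 CPM without Nanog. Every library with Nanog was below every one without Nanog, and signal fell by 0.65 ± 0.11 on the log2 scale (edgeR, adjusted p = 0.000141). Per kb this region was within the strongest 0.52% of the table. A region 28.8 kb away on the same side, within the strongest 0.23%, was not called (log2 fold change -0.20 ± 0.10, edgeR, adjusted p = 0.172). Nor was that 0.8 kb from the gene, which went the other way (log2 fold change 0.56 ± 0.23, edgeR, adjusted p = 0.0886).

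On the other side of Tfap2c 4 regions were called higher. The nearest, 18.9 kb away at 172577049 to 172578076, had 70.4, 69.7 and 69.8 CPM with Nanog and 36.5, 49.4 and 38.8 CPM without Nanog, a log2 fold change of 0.75 ± 0.12 (edgeR, adjusted p = 7.64e-05). A region 56.3 kb away at 172614556 to 172615324 had 24.3, 29.95 and 24.97 CPM with Nanog and 11.9, 10.9 and 10.4 CPM without Nanog, a log2 fold change of 1.27 ± 0.18 (edgeR, adjusted p = 8.69e-06). Another, 60.6 kb away at 172618827 to 172619520, had 13.3, 15.8 and 15.2 CPM with Nanog and 5.97, 4.21 and 3.53 CPM without Nanog, a log2 fold change of 1.75 ± 0.24 (edgeR, adjusted p = 6.89e-06). None of these overlapped between the lines, and each of them, like the lower region, differed from the gene as a whole (diffSpliceDGE, adjusted p from 4.2e-07 to 0.000192). The weakest, 30.5 kb away at 172588983 to 172589169, had 2.33, 2.12 and 2.55 CPM with Nanog and 0.746, 0.561 and 0.588 CPM without Nanog. It rests on few reads, and its call (log2 fold change 1.88 ± 0.46; edgeR, adjusted p = 0.0038) was lost with a loess offset (log2 fold change 1.19, adjusted p = 0.0894). The 15 regions of Tfap2c not called had log2 fold changes from -0.44 to 0.56.

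Elf5, an ETS factor that reinforces Cdx2 in trophoblast stem cells and whose promoter is methylated in embryonic stem cells, lies on chromosome 2 at 103412098 to 103450989. The region 20.2 kb upstream, at 103391654 to 103392115, had 12.8, 21.9 and 15.5 CPM with Nanog and 3.36, 7.01 and 4.51 CPM without Nanog. Signal rose by 1.74 ± 0.26 on the log2 scale (edgeR, adjusted p = 1.72e-05), with no overlap, and the call held in all 16 alternatives. The region was in the list with Nanog alone, and the alternatives use the same libraries, so they do not remove that dependence. This region differed from the gene as a whole (diffSpliceDGE, adjusted p = 0.00271). The strongest region by mean log2 CPM, 51.2 kb upstream at 103360656 to 103361082, had 11.4, 15.3 and 13.5 CPM with Nanog and 7.08, 10.1 and 7.26 CPM without Nanog. Its call (log2 fold change 0.72 ± 0.22; edgeR, adjusted p = 0.0199) was lost on leaving out B or C with Nanog or A or C without Nanog (edgeR, adjusted p from 0.06 to 0.11). The 3 regions inside Elf5 were not called, and over these alone the sum of the gene had a log2 fold change of 0.14 (edgeR, adjusted p = 0.666). One of them, at 103428321 to 103428515, was weak, with a log2 fold change of -0.27. The lines overlapped there, yet it had a lower log2 fold change than the gene as a whole (diffSpliceDGE, adjusted p = 0.0399).

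Ets2, an ETS factor downstream of FGF and ERK that sustains trophoblast stem cells, lies on chromosome 16 at 95702407 to 95721049, with no region inside it. Its strongest region, 16.3 kb upstream at 95685707 to 95686523, had 27.3, 21.7 and 28.8 CPM with Nanog and 47.0, 46.6 and 48.0 CPM without Nanog. The lines were well apart and signal fell by 0.87 ± 0.14 on the log2 scale (edgeR, adjusted p = 4.43e-05). The region beside it, 15.2 kb upstream at 95686963 to 95687419, had 11.7, 7.08 and 12.7 CPM with Nanog and 22.7, 16.8 and 23.3 CPM without Nanog (log2 fold change -1.01 ± 0.21; edgeR, adjusted p = 0.000879). The farthest, 20.4 kb upstream at 95681867 to 95682180, had 3.94, 4.48 and 3.69 CPM with Nanog and 8.58, 5.89 and 8.43 CPM without Nanog (log2 fold change -0.91 ± 0.26; edgeR, adjusted p = 0.0127). All 3 upstream regions were thus lower with Nanog in every library.

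Downstream of Ets2, 46.2 kb from the gene at 95766842 to 95767755, the opposite was seen, with 23.3, 26.2 and 21.7 CPM with Nanog and 13.8, 18.2 and 12.4 CPM without Nanog. The log2 fold change was 0.69 ± 0.18 (edgeR, adjusted p = 0.00639), and the region differed from the gene as a whole (diffSpliceDGE, adjusted p = 1.25e-05). Of the 4 calls at Ets2, that at 16.3 kb held in every alternative. With libraries thinned to equal totals, those at 20.4 and 15.2 kb were lost (edgeR, adjusted p = 0.142 and 0.088) and so was that of the gene sum (adjusted p = 0.0735). The call at 20.4 kb was also lost without library C of either line (edgeR, adjusted p = 0.0612 with Nanog and 0.0834 without Nanog), and the downstream call without library C without Nanog (edgeR, adjusted p = 0.0585).

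Hand1, a basic helix-loop-helix factor of trophoblast giant cells, lies on chromosome 11 at 57828713 to 57832147, and none of its 10 regions was called. The strongest, 37.0 kb away at 57868741 to 57869632, had 64.6, 65.8 and 65.5 CPM with Nanog and 56.7, 58.9 and 64.5 CPM without Nanog. The lines did not overlap, yet the log2 fold change was 0.12 ± 0.11 (edgeR, adjusted p = 0.525). It held 55.7% of the signal of Hand1 with Nanog and 54.4% without Nanog. Per kb it was within the strongest 1.12% of all regions. The 10 regions had log2 fold changes from -0.25 to 0.55, and no region differed from the gene as a whole.

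Bmp4, the secreted ligand of the set, lies on chromosome 14 at 46383525 to 46390669, and its calls clustered at the gene itself. The strongest region, 1.3 kb upstream at 46391667 to 46392194, had 20.1, 25.7 and 20.6 CPM with Nanog and 6.34, 7.29 and 7.45 CPM without Nanog. Signal rose by 1.64 ± 0.20 on the log2 scale (edgeR, adjusted p = 1.17e-06). The region held 21.2% of the signal of Bmp4 with Nanog and 10.4% without Nanog. Inside the gene, at 46386328 to 46386709, there were 6.27, 6.84 and 5.86 CPM with Nanog and 3.36, 1.402 and 1.37 CPM without Nanog (log2 fold change 1.75 ± 0.34; edgeR, adjusted p = 0.000426). Both regions were without overlap and had higher log2 fold changes than the gene as a whole (diffSpliceDGE, adjusted p = 0.00207 and 0.0438).

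A region 1.4 kb downstream of Bmp4, at 46381917 to 46382423, had 8.75, 12.5 and 8.03 CPM with Nanog and 2.61, 7.29 and 3.92 CPM without Nanog (log2 fold change 1.07 ± 0.29; edgeR, adjusted p = 0.00855). Its call was lost on leaving out B with Nanog or A or C without Nanog (edgeR, adjusted p = 0.0797, 0.0532 and 0.0645). Farther downstream, the region at 13.8 kb had 7.44, 8.26 and 9.81 CPM with Nanog and 8.20, 9.82 and 12.7 CPM without Nanog. That at 78.3 kb had 3.35, 3.42 and 3.95 CPM with Nanog and 3.36, 5.33 and 7.26 CPM without Nanog. The lines overlapped at both, neither was called on its own, and both had lower log2 fold changes than the gene as a whole (diffSpliceDGE, adjusted p = 0.00636 and 0.00286). The 10 regions of Bmp4 tested and not called had log2 fold changes from -0.65 to 0.75, and a last one, 22 bases wide, had too few reads to test.

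**Figure D4:**
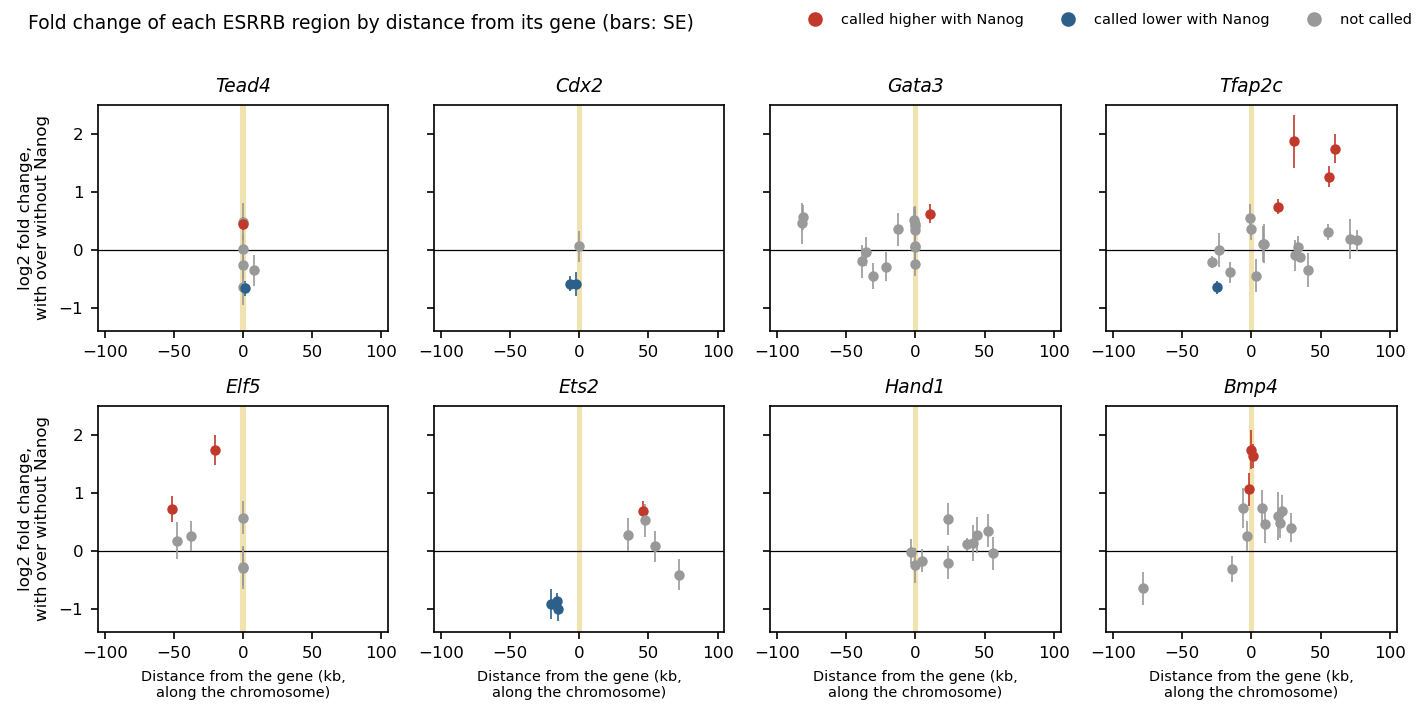
Log2 fold change (with over without Nanog, bars SE) of the 83 regions tested, by distance from their gene in kb along the chromosome; regions inside a gene are drawn at 0, under the shaded band. Red points are called higher, blue lower and grey not called. At Ets2 and Tfap2c the called regions differ in sign between the sides of the gene, at Bmp4 the higher calls sit at the gene, and at Hand1 no point is coloured.

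Other genes of the programme and its pathways were counted by the same distance rule. At 28 other trophoblast genes, 209 regions were tested, 25 called higher and 32 called lower (27.3% called), with a median log2 fold change of -0.07. The Hippo pathway, at 15 genes, had 14 higher and 6 lower of 119 (16.8% called, median 0.00), and the BMP pathway, at 19 genes, 22 higher and 6 lower of 156 (17.9% called, median 0.11). These stand beside 19.2% called, 9.42% higher and 9.78% lower, and the median of -0.01 over all regions. How many regions of these pathways came from each peak list was not counted, and their directions were not tested.

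Among these, the 4 genes per list with the smallest adjusted p at their strongest region were taken. Cdx4, a paralogue of Cdx2, had 21.4 ± 1.6 CPM with Nanog and 10.0 ± 2.2 CPM without Nanog (SD, n = 3 per line), and Tead1, a paralogue of Tead4, had 123 ± 6.4 and 173 ± 16 CPM with and without Nanog. Of the keratin genes of simple epithelia, Krt18 had 8.02 ± 0.24 CPM with Nanog and 12.8 ± 1.7 CPM without Nanog, and Krt8 had 8.11 ± 0.70 CPM with Nanog and 4.61 ± 3.1 CPM without Nanog. All 4 were called (edgeR, adjusted p = 0.000225, 0.000494, 0.0259 and 0.027), but the lines overlapped at Krt8. Both keratin calls failed under DESeq2 and when any 1 library with Nanog was removed, and that of Krt18 also without A or B, and that of Krt8 without B or C, of the libraries without Nanog. The Krt8 call was also lost with thinned libraries (edgeR, adjusted p = 0.142).

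In the Hippo pathway Mob1b, which encodes an adaptor of the LATS kinases, fell to 39.3 ± 2.7 CPM with Nanog, against 58.8 ± 7.2 CPM without Nanog. Amot, a YAP-binding junction protein, had 6.15 ± 0.91 CPM with Nanog and 10.6 ± 2.5 CPM without Nanog, and Stk4, an upstream kinase, had 11.8 ± 1.1 CPM with Nanog and 6.40 ± 2.0 CPM without Nanog. Both were called (edgeR, adjusted p = 0.021 and 0.0124). The Amot call was lost under DESeq2 (adjusted p = 0.05), with thinned libraries (edgeR, adjusted p = 0.22) and without A or C with Nanog or B without Nanog, and the Stk4 call without A of either line. Yap1, the TEAD4 co-activator, had 52.4 ± 4.8 CPM with Nanog and 64.5 ± 5.3 CPM without Nanog and was not called (edgeR, adjusted p = 0.0791), but it was called lower in 4 alternatives. These were TMM on the regions of lowest signal, a mean count of at least 50, the block by letter and removal of library B without Nanog (edgeR, adjusted p = 0.0268, 0.0486, 0.015 and 0.0313).

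In the BMP pathway Id3, a BMP target, rose to 45.9 ± 3.6 CPM with Nanog, against 29.9 ± 2.4 CPM without Nanog. The ligand gene Bmp2 rose to 21.8 ± 2.4 CPM with Nanog, against 11.9 ± 2.2 CPM without Nanog, and Smad7, an inhibitory SMAD, to 99.0 ± 7.7 CPM with Nanog, against 75.004 ± 2.6 CPM without Nanog. The receptor gene Bmpr1a had 9.03 ± 1.2 CPM with Nanog and 14.6 ± 0.51 CPM without Nanog, called lower (edgeR, adjusted p = 0.0147). The calls at Smad7 without library C with Nanog, and at Bmpr1a with thinned libraries or without A or B with Nanog or C without Nanog, were lost.

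Over the 6 libraries, the genes whose summed signal was most like that of Cdx2 were Caln1, Crb2 and Sez6, at Euclidean distances of 0.088, 0.09 and 0.094 between log2 CPM centred on each gene's mean. Caln1, for example, had 76.6, 74.4 and 78.2 CPM with Nanog and 122, 91.1 and 114 CPM without Nanog. Those most like Elf5 were Tdrd5, Kbtbd11 and Cep55, at 0.107, 0.127 and 0.16. These are the nearest of 9317 genes compared, over 6 libraries, and are given as a description.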

How the data were processed

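ESRRB ChIP-seq counts of 6 libraries, 3 per line, were analysed. The deposited table gives raw read counts per region, and the submitters' processing notes list mm10 as the build and, as tools, Bowtie2, MACS2, deepTools, bcl2fastq 2.19.1, bedtools 2.26.0 and SAMtools 1.4.1. How these were run, what counted the reads and whether duplicate reads were removed: not given in the sources used here. Peak lists hold positions alone. The 6 input samples were not analysed here. The table's columns are lettered, with no replicate number, which ties each to a line only.

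Regions were assigned by their centre to the nearest protein-coding gene span of GRCm38.p6, without exons. Coordinates are 1-based. Regions passing filterByExpr were scaled by TMM and tested in R 4.3.3 with edgeR 4.0.16 (glmQLFit, then glmQLFTest), with the line as the design and Benjamini-Hochberg adjustment over all regions; summed counts per gene were tested likewise over all genes, and diffSpliceDGE compared regions of 1 gene. Each SE is the absolute log2 fold change divided by the square root of the F statistic of glmQLFTest, which gives no SE itself. Log-CPM had a prior count of 2. Library pairs within a line differed beyond sampling noise (chi-square over its degrees of freedom 1.33 to 2.53). Functions were tested on simulated data. There edgeR called 6 of 67 regions changed 1.5-fold with the right sign, 27 of 67 changed 2-fold and 66 of 66 changed 4-fold. It also called 12 of 84341 unchanged regions. The region test of diffSpliceDGE found 2 of 67, 15 of 65 and 60 of 66 at these folds. Far fewer regions were changed there than were called here, so these shares do not carry over.

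Members and gene lists were chosen with earlier results of these data known. By the naming rule, every called region and the strongest region of each of the 8 genes is given. Also given are 4 genes per pathway list and the 3 genes nearest to Cdx2 and Elf5. The Gata3 start region and the other uncalled regions named at Gata3, Cdx2, Bmp4, Elf5 and Tfap2c were added after their values were seen. The alternatives comprised DESeq2 1.42.0, limma-voom (limma 3.58.1), other scalings and filters, a loess offset, a letter block, other distances and overlaps and leaving out each library; thinning and sums without the strongest region were added after seeing the data.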

Additional observations from a re-analysis of the deposited data

How the results depend on the processing

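Of 19 called regions, 11 kept their call in each of the 16 alternatives that tested them, 8 lost it in at least 1 and 0 reversed. For all regions DESeq2 gave 4786 higher and 5437 lower calls, regions with a mean count of 50 or more gave 4978 and 5503, and libraries thinned to equal totals 5236 and 5005. With 1 library removed there were 4988 to 9288 higher and 4780 to 8971 lower calls over all regions, and 9 to 15 higher and 5 to 7 lower at the 8 genes, where thinning left 4 lower calls. Counting only regions inside the genes left 2 higher and 0 lower calls, and 0 lower gene sums. With genes of any type allowed as nearest, 37 of the 84 regions remained, with 3 higher and 1 lower call. Lower gene sums numbered 1 after thinning and 1 without the strongest region of each gene. Regions differing from their gene numbered 10 to 19 with 1 library left out. Regions in both peak lists numbered 17 with reciprocal overlap of 50%.

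Values that changed sign were not called in the main test, except the sum of Cdx2. Over regions inside the gene, log2 fold changes were 0.072 at Cdx2 and -0.248 at Hand1. Tfap2c was at -0.054 within 50 kb and between -0.004 (without library B with Nanog) and 0.105 with 1 library removed, and its strongest region at 0.048 with the loess offset. Tead4 was between -0.018 and 0.088 with 1 library removed, below 0 without B with Nanog (-0.014) or C without Nanog (-0.018), and -0.453 without its strongest region (edgeR, adjusted p = 0.000886). The cause of these sign changes was not tested.

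The column letters are not the titles' replicate numbers, and the main fit did not take libraries sharing a letter as pairs. Deviations from the line means correlated at 0.086, 0.228 and 0.131 between libraries sharing a letter. Between the others they correlated at -0.162 to 0.046. Libraries sharing a letter thus deviated together somewhat more than the others, and the main fit leaves this out of account. A replicate block by letter gave 16 higher and 8 lower calls at the 8 genes and 10095 and 10825 over all regions. Weak regions, with few reads without Nanog, limit what can be called.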
